A study of Mus musculus with 67 samples.

Results

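The genes described here are those of the mitochondrial genome, chosen as every row of the deposited expression table whose gene symbol starts with mt-. There were 37 such rows of 45808 in all. They comprise 13 protein-coding genes, 2 rRNA genes and 22 tRNA genes, and all 37 matched a gene of the GENCODE M21 annotation of GRCm38. The annotation places 28 of them on the plus strand of chrM, namely both rRNA genes, 12 protein genes and 14 tRNA genes. The other 9, mt-Nd6 and 8 tRNA genes, lie on the minus strand.

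The data are 67 liver RNA-seq libraries from C57BL/6 mice aged 24 weeks, all of them fed a high-fat diet (HFD) for 12 weeks. The diet was given either ad libitum (group FA) or as time-restricted feeding (group FT, whose feeding hours are not given in the labels). The 4 genotypes were WT, Bmal1-liverKO, Cry1Cry2 double KO and Rev-erb[alpha]/[beta]-liverdoubleKO, called Rev-erb liverdKO from here on. The Bmal1 and Rev-erb deletions are labelled as liver-specific and the Cry1Cry2 label names no tissue, and the driver of the liver deletions is not given in the labels. The FA and FT groups held 12 and 11 WT libraries, 6 and 6 Bmal1-liverKO libraries, 8 and 8 Cry1Cry2 double KO libraries, and 8 and 8 Rev-erb liverdKO libraries. WT and Bmal1-liverKO livers were sampled every 4 h from ZT4 to ZT24, the others every 3 h from ZT3 to ZT24 (ZT is the number of hours after lights on). WT had replicates 1 and 2 at each time, except that FT at ZT12 has replicate 2 only, and each mutant group had 1 library per time. Nothing in the labels ties a library to its own mouse, so p-values measure the spread between libraries, which may be technical.

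Mitochondrial DNA is read from both strands into long transcripts, and excision of the tRNAs releases the rRNAs and mRNAs between them. The proteins are subunits of respiratory complex I (the Nd genes), complex III (mt-Cytb), complex IV (the Co genes) and ATP synthase (the Atp genes), and they work beside many subunits encoded in the nucleus. Most mitochondrial mRNAs receive a poly(A) tail, which for some of them completes the stop codon, whereas mature tRNAs carry a CCA end and no such tail. The libraries here were made from poly(A) RNA, so the levels are those of tailed or poly(A)-linked RNA and not of all mitochondrial RNA. In bulk liver, fewer hepatocytes and less mitochondrial RNA per cell cannot be told apart.

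The frame of the coding sequences shows the incomplete stop codons. The annotated lengths of mt-Nd4, mt-Cytb and mt-Co3 leave a single T after the last whole codon, while the other 10 coding sequences end in TAA or TAG. The last 24 bases of 3 coding sequences are given below from the GENCODE transcripts (GRCm38, plus strand, chrM:11521-11544, chrM:15265-15288 and chrM:3684-3707), with the final codon or its remnant in capitals.
mt-Nd4: aactaattacaggcctgacaataT
mt-Cytb: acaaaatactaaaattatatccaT
mt-Nd1: gcgggagtaccaccatacataTAG

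The minus-strand genes overlap plus-strand genes or adjoin them, which matters for what follows. The coding sequences of mt-Nd5 (plus strand) and mt-Nd6 (minus strand) share 14 bases at their 3′ ends, shown in capitals in the last 40 bases of each (chrM:13526-13565 and chrM:13552-13591). Likewise mt-Ti, the tRNA for isoleucine on the plus strand at chrM:3706-3774, shares 3 bases with mt-Tq, the tRNA for glutamine on the minus strand at chrM:3772-3842, again in capitals. The tRNAs mt-Tp for proline (chrM:15356-15422), mt-Te for glutamate (chrM:14071-14139) and mt-Ta for alanine (chrM:5018-5086) are the other minus-strand tRNAs with enough reads to be tested. They are shown because their feeding differences in WT and in Rev-erb liverdKO had the sign of that of mt-Nd6. In other comparisons they did not always follow mt-Nd6.
mt-Nd5 3′ end: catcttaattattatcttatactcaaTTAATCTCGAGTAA
mt-Nd6 3′ end: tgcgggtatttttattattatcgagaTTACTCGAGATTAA
mt-Ti: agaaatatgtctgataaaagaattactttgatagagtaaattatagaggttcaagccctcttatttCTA
mt-Tq: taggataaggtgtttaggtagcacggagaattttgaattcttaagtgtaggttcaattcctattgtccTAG
mt-Tp: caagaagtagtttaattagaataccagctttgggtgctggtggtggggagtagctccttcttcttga
mt-Te: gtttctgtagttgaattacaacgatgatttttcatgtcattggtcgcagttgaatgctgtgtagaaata
mt-Ta: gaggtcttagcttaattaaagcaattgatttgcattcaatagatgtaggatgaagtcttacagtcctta

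The deposited values are FPKM, read counts scaled by gene length and library depth. Low values were whole multiples of what 1 read is worth, which gave depths of 9.57 M to 35.07 M reads per library. Hepatocyte markers (10 genes, albumin among them) summed to 30903 to 90549 FPKM, so the libraries are liver. The summed acinar pancreas markers reached 4446 FPKM and the erythroid markers 3482 FPKM in single libraries, against group medians of at most 112 and 1200.5 FPKM, and their part in the results was not tested. The deleted genes gave no check of the genotypes, because FPKM run over whole genes and the labels do not name the deleted exons. Median Arntl (Bmal1) was 3.18 and 3.08 FPKM in Bmal1-liverKO FA and FT against 6.93 and 7.83 in WT, with ranges that overlapped. Cry1 was 9.94 and 10.8 in Cry1Cry2 double KO against 9.70 and 10.6, and Cry2 was 2.96 and 2.69 against 3.58 and 2.86. Nr1d1 was 33.5 and 28.1 in Rev-erb liverdKO against 3.16 and 2.18, and Nr1d2 was 17.9 and 16.5 against 8.28 and 15.6. Every genotype named below is therefore the label of the library, and the Cry1, Nr1d1 and Nr1d2 levels of the mutants give it no support.

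A block of 11 adjacent genes was almost without reads in every library. It runs from mt-Ts1 to mt-Nd4l and holds the mRNAs of 2 cytochrome oxidase subunits (mt-Co2 and mt-Co3), both ATP synthase subunits (mt-Atp8 and mt-Atp6), mt-Nd3 and mt-Nd4l, and 5 tRNAs. These genes received 41 recovered reads in all 67 libraries together. The highest mean among them was 0.196 FPKM (mt-Tr), and the highest single value was 1.62 FPKM. The 7 mRNAs outside the block had means of 125 FPKM (mt-Nd6) or more. The block coincides with a stretch that the nuclear genome carries as a copy. On chromosome 1, 7 annotated pseudogenes on the minus strand between 24611535 and 24616197 (GRCm38) match chrM from 6381 to 11042, over 4662 bases, in the same order and at 98.78 to 100% identity. The copies of the mRNAs are annotated genes, mt-Atp8 apart, whereas those of mt-Atp8 and the 5 tRNAs are not, and their letters were not compared.

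The copy is nearly letter for letter. The copies of mt-Co2 (Gm28661), mt-Atp6 (Gm10925), mt-Co3 (Gm28437), mt-Nd4l (Gm10222) and the first 876 bases of mt-Nd4 (Gm28439) had 0 mismatches over the bases compared. That of mt-Nd3 (Gm28438) had 1 in 345 bases, T3C, counted from 1 at the 5′ end of mt-Nd3. At the other edge, Gm29216 matched the last 492 bases of mt-Co1 with 6 differences, T1056A, C1057T, A1059G, A1060G, C1062A and A1066T, all within its first 13 bases. The first 45 bases of both pairs are given with the differing bases in capitals, from chrM:9459-9503 for mt-Nd3 and chrM:6381-6425 for mt-Co1.
mt-Nd3: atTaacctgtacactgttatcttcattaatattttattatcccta
Gm28438: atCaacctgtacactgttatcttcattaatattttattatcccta
mt-Co1: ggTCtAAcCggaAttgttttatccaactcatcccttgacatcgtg
Gm29216: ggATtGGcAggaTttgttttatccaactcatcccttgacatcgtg

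The copies themselves were not credited with those reads. Their means were 0.0319 FPKM (Gm10222) to 0.288 FPKM (Gm28661), so neither the mitochondrial genes nor their nuclear twins held the signal. How reads that match several places were counted is not given in the sources used here, and its part in the empty block was not tested. No level, and no statement on complex IV subunits 2 and 3 or on ATP synthase, can be drawn for these genes from the table. Of the 7 tested mRNAs, 4 also share sequence with nuclear transcripts. Of the 50-base windows of mt-Co1 and mt-Nd4, 51.1 and 62.2% occur unchanged in a nuclear transcript of the annotation, against 8.2% for mt-Nd2, 7.6% for mt-Nd5 and 0.0% for mt-Nd1, mt-Nd6 and mt-Cytb, so the levels of mt-Co1 and mt-Nd4 are uncertain and may be too low.

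**Figure D1:**
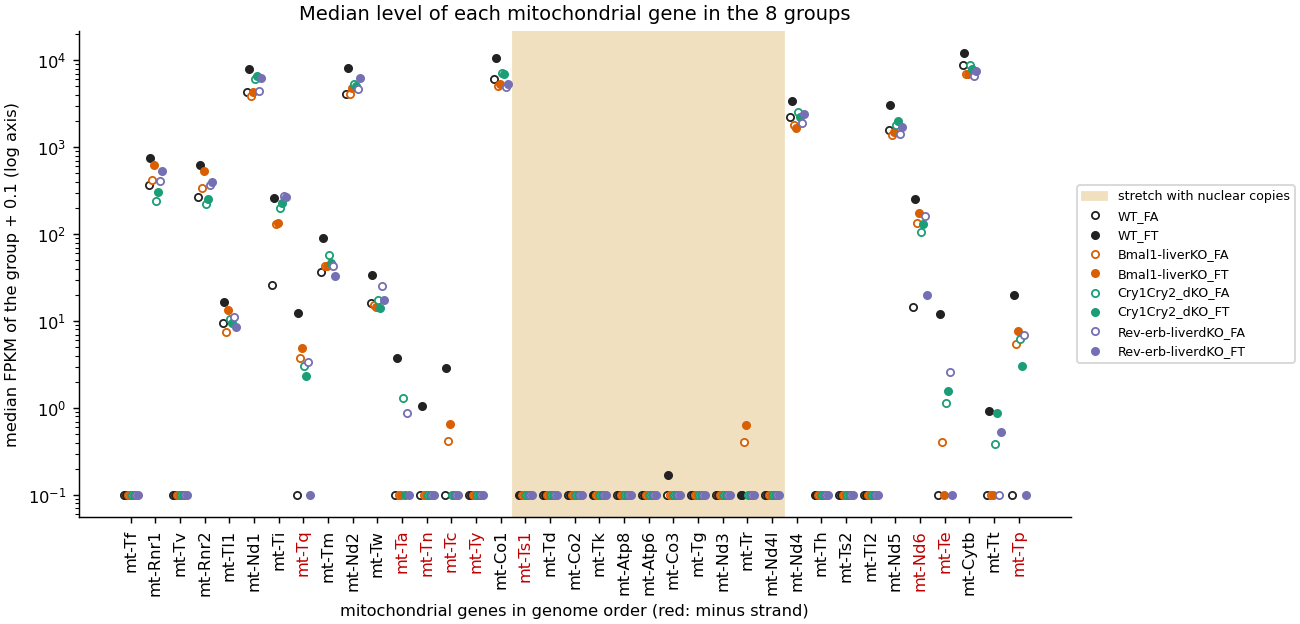
Median FPKM plus 0.1 (log axis) of each of the 37 mitochondrial genes in the 8 groups, in genome order, with open symbols for FA and filled symbols for FT, and minus-strand genes labelled in red. Genes in the shaded stretch with nuclear copies sit at or near 0 in all groups, and the minus-strand genes mt-Tq, mt-Nd6 and mt-Tp are lowest in WT FA and Rev-erb liverdKO FT.

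Outside the block, 9 tRNAs were also too low to test (mt-Tf, mt-Tv, mt-Tn, mt-Tc, mt-Ty, mt-Th, mt-Ts2, mt-Tl2 and mt-Tt), and 7 tRNAs in all were listed at 0 in every library. A gene was tested if its mean over all libraries was at least 1 FPKM, and 17 of the 37 passed: both rRNAs, 7 mRNAs and 8 tRNAs. Of these, 12 lie on the plus strand and 5 on the minus strand. The 20 that did not pass are 6 mRNAs and 14 tRNAs. For a tRNA gene of 67 bases, 1 read amounted to 0.426 to 1.56 FPKM, depending on the library.

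Cytochrome b (mt-Cytb, complex III) had the highest FPKM of the mitochondrial genes in 65 of 67 libraries, with a mean of 8702 FPKM. The mean level was 6689 FPKM for mt-Co1 (the catalytic core of complex IV), 5584 for mt-Nd1, 5461 for mt-Nd2, 2392 for mt-Nd4 and 1812 for mt-Nd5, all complex I subunits. Ranges of mt-Nd1 and mt-Nd2 overlapped in every group, and either could be the higher of the pair. The rRNAs of the small and large mitochondrial ribosomal subunit, mt-Rnr1 and mt-Rnr2, averaged 523 and 437 FPKM, below each of the 6 tested plus-strand mRNAs, in libraries selected for poly(A). The only minus-strand mRNA, mt-Nd6, averaged 125 FPKM. Among tRNAs, mt-Ti averaged 196 FPKM, mt-Tm 53.7, mt-Tw 21.6 and mt-Tl1 11.7, and the 4 tested minus-strand tRNAs averaged 1.25 (mt-Ta) to 6.56 FPKM (mt-Tp).

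Spread within groups differed between genes. The SD of log2 values (FPKM + 1) around the group means was 0.30 to 0.46 for the 6 plus-strand mRNAs, 0.56 for mt-Nd6, 0.62 and 0.75 for mt-Rnr1 and mt-Rnr2, and 0.45 (mt-Tm) to 0.85 (mt-Tq) for tRNAs, so the classes overlap. All mitochondrial genes together held 4.11 to 13.9% of the summed FPKM of a library. The groups' median shares were 5.16% in WT FA and 10.1% in WT FT, 5.98 and 5.33% in Bmal1-liverKO, 7.42 and 7.07% in Cry1Cry2 double KO, and 6.05 and 6.78% in Rev-erb liverdKO. The WT FT group was split by replicate: its 6 replicate 2 libraries lay at 10.1 to 13.9% and its 5 replicate 1 libraries at 4.26 to 9.38%. In WT FA the replicate 2 libraries lay at 4.38 to 7.28% and the replicate 1 libraries at 4.11 to 6.73%.

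A pair of library properties differed between groups in step with some of these levels. The first is base composition. The slope of nuclear genes' log2 level on their GC content had a median of 0.302 per 10 percentage points in WT FA (GC-rich genes high) and -0.513 in WT FT (GC-rich genes low), and medians of -0.0125 to 0.124 in the 6 mutant groups. In WT FT it was -1.05 to -0.513 in replicate 2 and -0.391 to 0.148 in replicate 1. The tested mitochondrial genes are poor in GC, with a median of 36.6% against 49.4% for other tested genes. The second is opposite-strand signal, measured as the summed FPKM of 50 nuclear genes that lie almost wholly (at least 90% of their exons) opposite a gene at least 10 times as abundant. Its median was 5.01 FPKM in WT FA and 2.80 in Rev-erb liverdKO FT, and 10.8 to 20.5 in the other 6 groups.

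Restricted feeding in WT was the first comparison, asking how FT livers differ from FA livers. All 17 tested members were higher in FT, and 17 of 17 passed the test (limma, Benjamini-Hochberg adjusted p under 0.05 over all genes), against 64.0% of all 9958 genes called, 28.6% higher and 35.4% lower. The median log2 difference was 0.70 over the 6 plus-strand mRNAs, 1.25 over the rRNAs, 1.11 over the 4 plus-strand tRNAs and 3.92 for mt-Nd6, against -0.03 over all genes. The 4 minus-strand tRNAs ranged from 2.27 to 3.96. Among them, mt-Ta passed the filter on mean level only through WT FT, where it averaged 5.32 FPKM. It averaged 0 in WT FA and 0 to 1.31 FPKM in the mutant groups. Its calls here, and in later comparisons that use WT FT, therefore follow in part from the filter. The mean of FT exceeded that of FA at 6 of 6 times for each of the 17. Ranges of single libraries did not overlap for 5 of them (mt-Ti, mt-Tq, mt-Nd6, mt-Te and mt-Tp), against 2.47% of all genes.

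The plus-strand mRNAs of complexes I, III and IV rose by 0.43 to 0.97 on the log2 scale, a range that overlaps that of the plus-strand tRNAs (0.81 to 3.23). In WT FA mt-Nd1 ran from 2543 to 5668 FPKM with a median of 4332, and in WT FT from 4358 to 12636 with a median of 7901. Its log2 difference was 0.97 ± 0.14 (SE, adjusted p = 7.42e-08 by limma), and mt-Nd2 gave 0.81 ± 0.14. For mt-Cytb the FA range was 6689 to 14914 FPKM (median 8747) and the FT range 6508 to 19997 (median 11977), a difference of 0.43 ± 0.12 (limma adjusted p = 0.00235). The groups overlapped for all 6 of these mRNAs, and the highest FT values of mt-Nd1 and mt-Cytb belonged to the replicate 2 library at ZT16. That library also had the highest summed FPKM of WT FT, 698391, against 421385 to 590775 in the others. Differences of 0.64 for mt-Co1, 0.46 for mt-Nd4 and 0.75 for mt-Nd5 also passed the test.

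After correction of every library for the GC content and length of genes, 10 of the 17 were called. The difference was then -0.01 for mt-Cytb (limma adjusted p = 0.965) and -0.11 for mt-Nd4 (adjusted p = 0.637), and mt-Nd2, mt-Co1, mt-Nd5, mt-Tw and mt-Tl1 no longer passed. mt-Nd1 was at 0.47, mt-Rnr1 at 0.56 and mt-Rnr2 at 0.81, and all 3 still passed. With replicate 1 libraries alone in WT, 12 of the 17 were called, and with replicate 2 alone 16. The 64.0% of all genes called belongs to the main fit, and no such share is given here for the corrected or single-replicate fits. The mt-Cytb difference was 0.19 in replicate 1 libraries (limma adjusted p = 0.295) and 0.60 in replicate 2 libraries (adjusted p = 1.13e-04).

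Both rRNAs were higher in WT FT, by more than any plus-strand mRNA was and by less than mt-Nd6. In FA mt-Rnr2, the large-subunit rRNA, ranged from 80.8 to 1663 FPKM around a median of 266, and in FT from 381 to 1983 around 624. The log2 difference was 1.38 ± 0.26 (limma adjusted p = 1.23e-05), and for mt-Rnr1 1.12 ± 0.23. The FA library of replicate 2 at ZT16 held the top values of that group, 1638 FPKM for mt-Rnr1 and 1663 FPKM for mt-Rnr2. The next highest FA values were 645 and 486. That library's FPKM over all genes summed to 1097495, against 419016 to 566518 in the other WT FA libraries. Summed rRNA FPKM amounted to 1.22 to 7.41% of the plus-strand mRNA sum in WT FA and to 2.21 to 8.78% in WT FT, ranges that overlap.

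**Figure D2:**
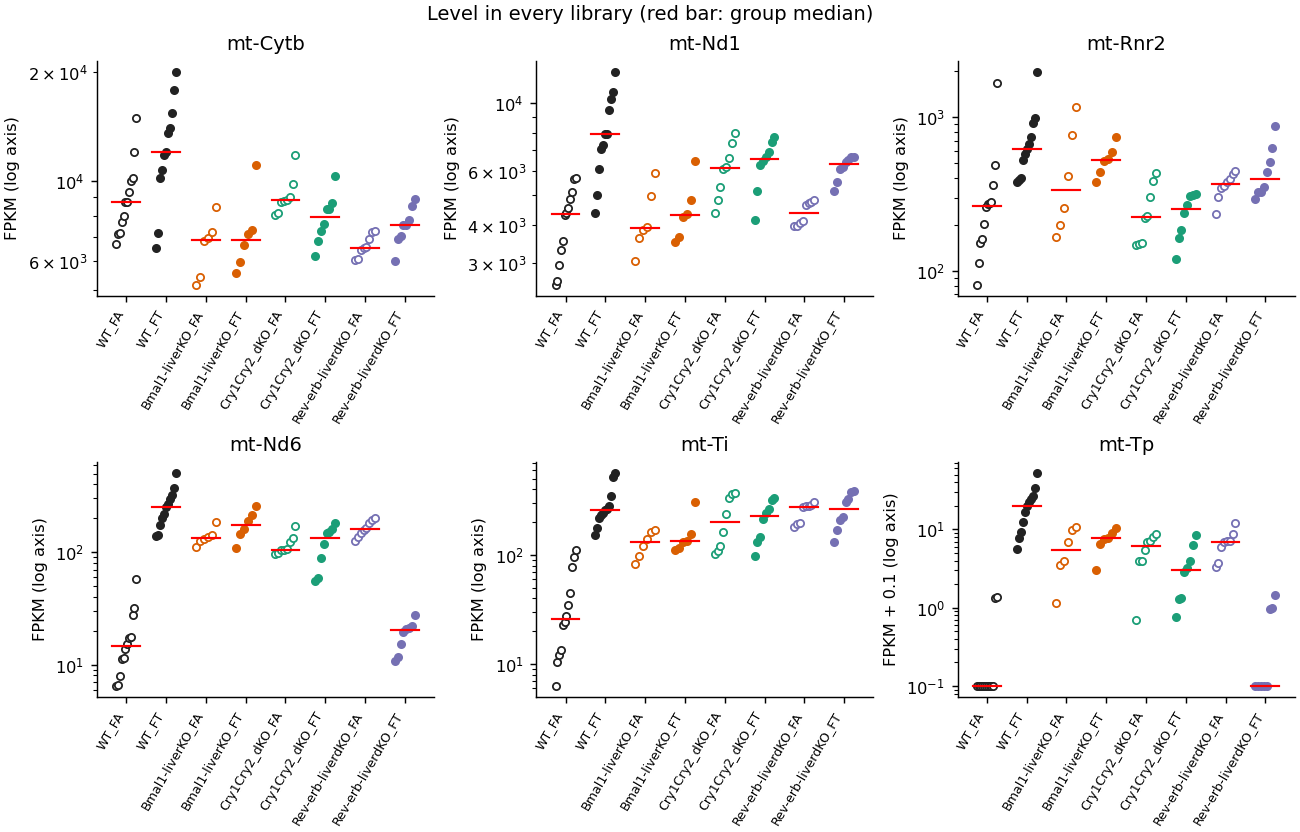
FPKM of 6 mitochondrial genes in every library (log axis; mt-Tp plus 0.1), by group, with open symbols for FA, filled symbols for FT and a red bar at the group median. The WT FA and FT libraries overlap for mt-Cytb, mt-Nd1 and mt-Rnr2 and do not overlap for mt-Nd6, mt-Ti and mt-Tp.

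The minus-strand genes and the plus-strand mt-Ti had the 6 largest differences among the 17 members. In WT FA mt-Nd6, which encodes a complex I membrane subunit, lay between 6.46 and 57.8 FPKM with a median of 14.6, and in WT FT between 138 and 507 with a median of 251. Every FT library was above every FA library. The log2 difference of 3.92 ± 0.20 (limma adjusted p = 6.85e-21) was 3.34 after GC and length correction, 3.93 in replicate 1 libraries and 3.75 in replicate 2 libraries. Relative to the plus-strand mRNA sum of the same library, mt-Nd6 was 0.0304 to 0.212% in WT FA and 0.360 to 0.983% in WT FT.

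The minus-strand tRNAs moved with mt-Nd6, on far fewer reads. mt-Tp had 3 reads in the 12 WT FA libraries together and 230 in the 11 WT FT libraries, where it ranged from 5.55 to 52.7 FPKM. For mt-Te the read totals were 7 and 132, and for mt-Tq 20 and 151. mt-Ta had 0 reads in FA and 58 in FT, and 10 of the 11 FT libraries had at least 1. Their fitted log2 differences were 3.96 ± 0.30 for mt-Tp, 3.0 ± 0.29 for mt-Te, 3.01 ± 0.35 for mt-Tq and 2.27 ± 0.29 for mt-Ta. At such counts these values depend on the constant of 1 FPKM added before taking logs, so they state a direction and not a fold.

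One plus-strand tRNA behaved differently from its neighbours. mt-Ti, encoded between mt-Nd1 and mt-Nd2, lay at 6.33 to 112 FPKM in WT FA (median 26.0) and at 151 to 566 in WT FT (median 257), with no overlap and a log2 difference of 3.23 ± 0.28 (limma adjusted p = 1.26e-13). mt-Tm, the methionine tRNA that lies next to mt-Nd2, gave 1.30 ± 0.19, mt-Tw 0.91 ± 0.25 and mt-Tl1 0.81 ± 0.30 (limma adjusted p = 0.0156). The mt-Tl1 call was lost without the FT library of replicate 2 at ZT16. The ratio of mt-Ti to mt-Tm in the same library was 0.261 to 2.60 in WT FA and 1.99 to 8.04 in WT FT, and it was 1.99 to 32.6 over the 6 mutant groups. After GC and length correction the mt-Ti difference was 2.57, still called, although no other tested gene of the genome is as poor in GC as mt-Ti at 27.5%.

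In Bmal1-liverKO the same comparison called 0 of 17 members, against 0.0402% of all genes, and separated the groups for 0 of 17, against 1.14%. By limma 1 member, mt-Tl1, had an unadjusted p under 0.05, and weighting the libraries by their quality called 1. mt-Nd6 was at 112 to 187 FPKM in FA (median 134) and at 109.6 to 258 in FT (median 175), and the groups overlapped. Its log2 difference was 0.33 ± 0.28, and that of mt-Nd1 was 0.10 ± 0.19. The plus-strand mRNAs gave differences of -0.01 to 0.23, and under scaling of every library to the same summed FPKM mt-Nd1 turned to -0.08 and mt-Cytb from 0.11 to -0.07.

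In Cry1Cry2 double KO 0 of 17 members were called, against 0.0201% of all genes. By limma 1 member, mt-Ta, had an unadjusted p under 0.05 with a difference of -0.72 ± 0.35, and the fit with library weights called 1. mt-Nd6 had medians of 105 FPKM in FA (96.3 to 171) and 132 in FT (55.0 to 181), a log2 difference of -0.06 ± 0.24. The 6 plus-strand mRNAs differed by -0.25 to 0.06 and the rRNAs by -0.03 and 0.10. FA and FT ranges overlapped for all 17, and 0 of all 9958 genes had ranges that did not overlap. Even so, mt-Nd4 was lower in FT at 8 of 8 times (medians of 2520.5 and 2223 FPKM).

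In Rev-erb liverdKO the minus-strand genes fell with restricted feeding. Of the 17 members 0 were called higher and 4 lower, against 3.33% of all genes called and 2.25% called lower. The 4 were mt-Nd6, mt-Tp, mt-Te and mt-Tq, all on the minus strand. The fifth minus-strand gene tested, mt-Ta, had 6 reads in FA and 0 in FT, and its difference of -0.59 ± 0.35 did not pass (limma adjusted p = 0.401).

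Across the 8 FA libraries of Rev-erb liverdKO, mt-Nd6 read 183, 165, 201, 147, 136, 125, 156 and 193 FPKM from ZT3 to ZT24. Across the 8 FT libraries it read 21.2, 20.7, 19.6, 21.9, 27.7, 15.1, 10.7 and 11.7 FPKM at the same times. FT was lower at all 8 times, with no overlap between the groups, and the log2 difference fell by 3.11 ± 0.24 (limma adjusted p = 1.54e-13). mt-Tp had 83 reads in FA and 3 in FT, with a fitted difference of -2.49 ± 0.35. For mt-Te the reads were 33 and 0 (-1.62 ± 0.34), and for mt-Tq 42 and 3 (-1.62 ± 0.42). The mt-Tq call was lost without any one of 3 libraries, FA at ZT6, FA at ZT24 and FT at ZT9, and after GC and length correction (limma adjusted p = 0.0507).

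No plus-strand member of Rev-erb liverdKO was called with restricted feeding, and their differences had both signs. Of the plus-strand tRNAs, mt-Tm gave -0.59 ± 0.22 (limma adjusted p = 0.131), mt-Tw -0.59 ± 0.30 and mt-Tl1 -0.63 ± 0.35, and FT was higher than FA at 1, 2 and 1 of 8 times. As a percentage of mt-Nd2 in the same library, mt-Tm was 0.732 to 1.42% in FA and 0.192 to 0.715% in FT, without overlap, and in WT it was 0.593 to 1.13% and 0.828 to 1.70%. mt-Ti was at 179 to 303 FPKM in FA (median 277) and 131 to 382 in FT (median 266), a log2 difference of 0.03 ± 0.33, unlike its low level in WT FA. mt-Nd1 was at 3958 to 4831 FPKM in FA and 5170.1 to 6665 in FT. These ranges did not overlap, nor did those of mt-Nd2 (3878 to 5165 and 5525 to 7503 FPKM), against 2.86% of all genes. Their differences of 0.49 ± 0.17 and 0.50 ± 0.16 did not pass in the fit of all groups (limma adjusted p = 0.0909 and 0.0771). In a fit of the 16 Rev-erb liverdKO libraries alone both passed (limma adjusted p = 0.00108 and 0.00152). That fit called 9 of the 17 members, and its share of all genes called is not given here.

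The balance among plus-strand mRNAs also shifted, a measure that no scaling of libraries can change. The ratio of mt-Nd1 to mt-Co1 in the same library was 0.823 to 0.994 in Rev-erb liverdKO FA (median 0.867), and every FT library lay above that range (median 1.15, highest 1.46). In WT it was 0.457 to 0.761 in FA and 0.654 to 0.918 in FT, in Bmal1-liverKO 0.711 to 1.13 and 0.742 to 0.90, and in Cry1Cry2 double KO 0.630 to 1.02 and 0.683 to 1.17, all with overlap. mt-Co1 itself differed by 0.06 ± 0.18 on the log2 scale in Rev-erb liverdKO. Because mt-Co1 is partly copied in the nucleus, the ratio of mt-Nd1 to mt-Cytb was computed too, and it was 0.616 to 0.719 in FA and 0.730 to 1.07 in FT, again without overlap. In WT that ratio was 0.354 to 0.609 in FA (median 0.433) and 0.567 to 0.700 in FT (median 0.660), with overlap, while its Rev-erb liverdKO medians were 0.655 and 0.778. Its medians were 0.632 and 0.625 in Bmal1-liverKO and 0.656 and 0.757 in Cry1Cry2 double KO. Whether the shift differed between genotypes was not tested. The ratios were not corrected for GC content, which is 37.6% for mt-Nd1, 39.9% for mt-Co1 and 39.1% for mt-Cytb. These gene pairs, and mt-Tm with mt-Nd2 above, were not among the planned sums and ratios by class and strand. How often other gene pairs separate FA from FT is not given here.

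**Figure D3:**
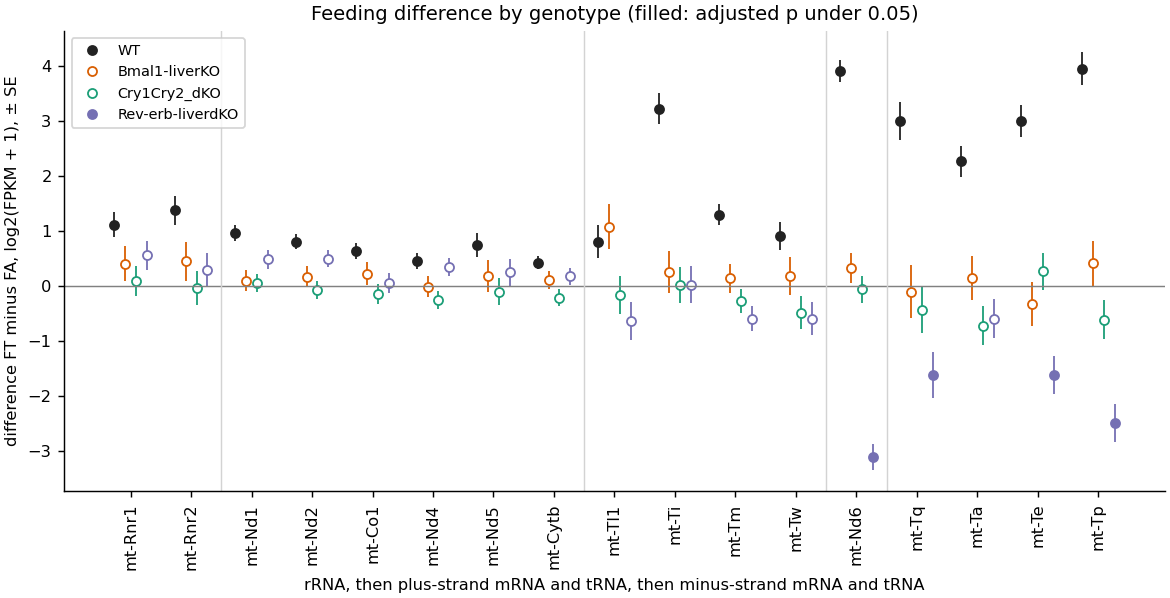
Log2 difference FT minus FA (log2 of FPKM + 1, ± SE) of the 17 tested mitochondrial genes in each genotype, ordered by class and strand, with filled symbols where limma's adjusted p was under 0.05. All 17 are above 0 in WT, and mt-Nd6, mt-Tq, mt-Te and mt-Tp are below 0 in Rev-erb liverdKO.

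The low minus-strand groups were also the groups of low opposite-strand signal. The opposite-strand sum was 3.09 to 12.6 FPKM in WT FA and 8.39 to 52.3 in WT FT, and 9.75 to 25.3 in Rev-erb liverdKO FA and 0.90 to 3.53 in Rev-erb liverdKO FT. mt-Nd6 as a share of plus-strand mRNA had medians of 0.0495 and 0.563% in the WT groups and 0.700 and 0.0699% in the Rev-erb liverdKO groups. In Bmal1-liverKO and Cry1Cry2 double KO, where the opposite-strand medians were 10.8 to 20.5 FPKM, the median share was 0.350 to 0.660%. How far reads from the opposite strand make up mt-Nd6 and the minus-strand tRNAs was not tested. The library from WT FT replicate 1 at ZT24 had the highest opposite-strand sum, 52.3 FPKM, and the highest mt-Tp, 52.7 FPKM, beside the lowest mt-Nd5 of its group, 611 FPKM.

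**Figure D4:**
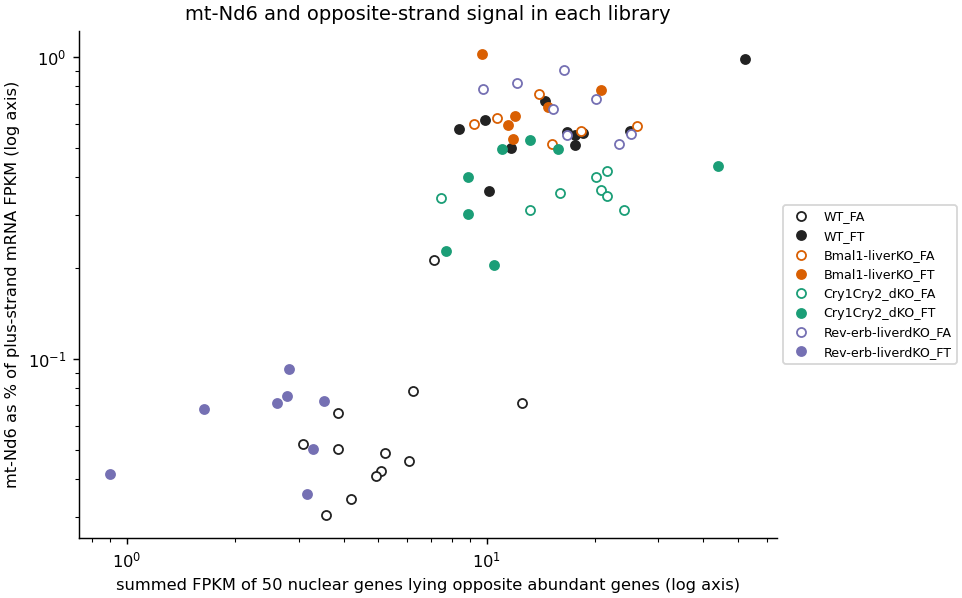
mt-Nd6 as a percentage of the summed FPKM of plus-strand mitochondrial mRNAs (log axis) against the summed FPKM of 50 nuclear genes lying opposite more abundant genes (log axis), 1 point per library, open for FA and filled for FT. WT FA lies at 0.0304 to 0.212% and Rev-erb liverdKO FT at 0.0355 to 0.0923%, and the Cry1Cry2 double KO FT library at ZT6 (0.204%) falls within the WT FA range.

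A direct test of whether the feeding difference varied between genotypes called 15 of the 17 members, against 47.1% of all genes (limma F test of the 3 differences from WT, adjusted over all genes). mt-Rnr1 (adjusted p = 0.0809) and mt-Nd5 (adjusted p = 0.126) did not pass. The 15 include mt-Ta, which passed the filter on mean level only through WT FT. The mt-Cytb call (adjusted p = 0.0396) was lost without any one of 21 libraries, 15 of them WT and 6 Cry1Cry2 double KO. The F statistic was 171.9 for mt-Nd6, 72.8 for mt-Tp, 39.4 for mt-Te, 28.2 for mt-Ti and 28.1 for mt-Tq, and 2.5 to 7.5 for the plus-strand mRNAs. After GC and length correction 7 of the 17 passed, and with each time as a category 8. The 47.1% of all genes belongs to neither of these fits.

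Mutant livers were next compared with WT under the same feeding, which shows the level of each gene by genotype. The 3 mutants share the WT libraries as controls. Under FA, 4 of 17 members were called higher and 1 lower in Bmal1-liverKO, against 24.9% of all genes called, 14.8% higher and 10.1% lower. In Cry1Cry2 double KO 7 were higher and 1 lower, against 55.4% of all genes, 24.8% higher and 30.7% lower. In Rev-erb liverdKO 5 were higher and 1 lower, against 44.7%, 20.8% higher and 23.9% lower. The genes called higher in all 3 were mt-Nd6, mt-Ti, mt-Tp and mt-Tq. The mt-Nd6 difference from WT FA was 3.08 ± 0.24 in Bmal1-liverKO, 2.83 ± 0.22 in Cry1Cry2 double KO and 3.31 ± 0.22 in Rev-erb liverdKO, and for mt-Ti it was 2.11 ± 0.33, 2.77 ± 0.30 and 3.07 ± 0.30.

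Under FA the plus-strand mRNAs differed from WT by -0.45 to 0.05 in Bmal1-liverKO, 0.02 to 0.59 in Cry1Cry2 double KO and -0.44 to 0.13 in Rev-erb liverdKO. mt-Cytb was called lower in Bmal1-liverKO (-0.45 ± 0.15) and in Rev-erb liverdKO (-0.44 ± 0.14), and both calls were lost when libraries were scaled to the same summed FPKM (-0.14 and -0.07). That scaling moved the median of all genes by over 0.1, to 0.24 in Bmal1-liverKO, 0.16 in Cry1Cry2 double KO and 0.25 in Rev-erb liverdKO, and it called 11 of 17 members in Rev-erb liverdKO, all of them higher. Relative to those medians mt-Cytb was still lower in Bmal1-liverKO and Rev-erb liverdKO. The Bmal1-liverKO call was also lost without the FA library at ZT8 or at ZT24 of that genotype. In Cry1Cry2 double KO mt-Nd1 was called higher (0.59 ± 0.15) and mt-Rnr1 lower (-0.64 ± 0.25, limma adjusted p = 0.0272), but the mt-Rnr1 call was lost under that scaling (-0.37) and without any one of 5 libraries (Cry1Cry2 double KO at ZT12, ZT18 or ZT24, and WT replicate 2 at ZT8 or ZT16).

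Under FT 0 of 17 members were called higher in any mutant. In Bmal1-liverKO 13 were lower, against 39.1% of all genes called, 27.8% higher and 11.3% lower. In Cry1Cry2 double KO 14 were lower, against 61.5%, 33.7% higher and 27.8% lower. In Rev-erb liverdKO 11 were lower, against 52.6%, 28.3% higher and 24.2% lower. All 6 plus-strand mRNAs were lower in Bmal1-liverKO, by -0.86 (mt-Nd4) to -0.63 (mt-Nd5), and in the other mutants 4 and 3 of the 6 were. mt-Nd6 differed by -0.50 in Bmal1-liverKO, which was not called. Its differences of -1.15 in Cry1Cry2 double KO and -3.71 in Rev-erb liverdKO were called. All 4 minus-strand tRNAs, mt-Ta among them, were called lower in each mutant, with medians of -1.64, -2.13 and -3.37 in the same order. Erythroid markers were higher than in WT FT in the same comparisons, with 3, 3 and 4 of 5 genes called higher and medians of 1.34, 1.74 and 1.70 in Bmal1-liverKO, Cry1Cry2 double KO and Rev-erb liverdKO, and 2 of the 5 were called lower in Cry1Cry2 double KO. Their summed level was 131 to 889.6 FPKM in WT FT, 225 to 1290.0 in Bmal1-liverKO, 260.3 to 3482 in Cry1Cry2 double KO and 334 to 986 in Rev-erb liverdKO. The 10 hepatocyte markers summed to a median of 34034 FPKM in Bmal1-liverKO FT (30903 to 42815) against 58636 in WT FT (48012 to 68225), 65063 in Cry1Cry2 double KO FT and 58050.0 in Rev-erb liverdKO FT. Under FA the Bmal1-liverKO and WT medians were 36312 and 59457 FPKM. Single hepatocyte markers went both ways under FT. In Bmal1-liverKO 3 were called higher and 2 lower (median -0.21), in Cry1Cry2 double KO 3 and 1 (0.03), and in Rev-erb liverdKO 4 and 1 (0.31). The part of these markers in the lower levels was not tested. When WT was represented by replicate 1 libraries alone, 4, 7 and 7 of the 17 members were called lower. Shares of all genes called in those fits are not given here. After GC and length correction mt-Nd1, mt-Nd2, mt-Co1, mt-Nd4 and mt-Cytb were above WT in Cry1Cry2 double KO, by 0.48, 0.27, 0.18, 0.36 and 0.13, and mt-Nd2 and mt-Nd4 were above WT in Rev-erb liverdKO, by 0.48 and 0.29.

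Both rRNAs were lower in Cry1Cry2 double KO than in WT under FT. Under FA the differences were -0.64 for mt-Rnr1 and -0.13 for mt-Rnr2, and only the first was called. mt-Rnr1 ranged from 147 to 441 FPKM in its FA group and had a median of 306 and a highest value of 353 in its FT group, so every FT library was below the lowest WT FT library at 485 FPKM. The log2 difference from WT FT was -1.67 ± 0.26 for mt-Rnr1 (limma adjusted p = 4.39e-07) and -1.55 ± 0.29 for mt-Rnr2 (adjusted p = 1.66e-05), and under the 3 other scalings it lay between -1.71 and -1.56 and between -1.59 and -1.44. After GC and length correction the differences were -0.82 and -0.72, still called. In Bmal1-liverKO FT and Rev-erb liverdKO FT neither rRNA passed, at -0.41 and -0.34, and -0.53 and -0.60. As a percentage of the plus-strand mRNA sum, the rRNAs had medians of 1.31 and 1.70% in Cry1Cry2 double KO FA and FT and of 2.46 to 4.87% in the other 6 groups. The ranges overlapped those of WT FA. The ratio of mt-Rnr1 to mt-Rnr2 stayed between 0.924 and 1.92 in all libraries, with group medians of 1.06 to 1.49.

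Time of day was tested with a 24 h cosine in WT FA, in WT FT and in the average over the 6 mutant groups. In WT FA 4 of 17 members were called rhythmic, against 29.7% of all genes. mt-Rnr1 had an amplitude of 0.86 (log2, mean to peak) with a peak at ZT 17.8 (limma adjusted p = 0.0150), mt-Rnr2 one of 1.16 at ZT 18 (adjusted p = 0.00416), mt-Ti one of 1.08 at ZT 13.9 (adjusted p = 0.0112) and mt-Nd6 one of 0.78 at ZT 14.9 (adjusted p = 0.0114). For mt-Rnr2 the replicate 1 libraries read 113, 80.8, 152, 359.6, 271 and 277 FPKM from ZT4 to ZT24, and the replicate 2 libraries 159.9, 200.2, 261, 1663, 486 and 280.2 FPKM. Both series were lowest at ZT4 or ZT8 and highest at ZT16. The ZT16 libraries also had the highest summed FPKM of their series, 566518 in replicate 1 and 1097495 in replicate 2. The mt-Rnr1 call was lost without the replicate 2 library at ZT16 or the replicate 1 library at ZT8. The mt-Nd6 call was lost without the replicate 1 library at ZT4. A fit of the WT FA libraries alone called 0 of the 17, and its share of all genes called is not given here. After GC and length correction neither rRNA was called, with amplitudes of 0.28 for mt-Rnr1 (limma adjusted p = 0.449) and 0.62 for mt-Rnr2 (adjusted p = 0.0510), while mt-Ti (0.91) and mt-Nd6 (0.63) still passed and mt-Nd1 (0.54) and mt-Nd2 (0.57) came to pass. Markers of other cells varied with time in the same libraries. All 8 tested acinar pancreas markers were called rhythmic in WT FA (median amplitude 2.55), with a summed level of 24.2 to 4446 FPKM, and so were both tested adipocyte markers (median amplitude 1.22), with a sum of 2.85 to 62.5 FPKM. Their part in the rhythm of the members was not tested.

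No member was called rhythmic in WT FT or in the average over the mutant groups. In WT FT 0 of 17 were called, against 20% of all genes, and in the 6 mutant groups averaged 0 of 17, against 19.0%. An average over groups can cancel rhythms that peak at different times, and single mutant groups were not tested. Amplitudes of the rRNAs were 0.36 and 0.45 in WT FT, and 0.23 and 0.33 over the mutants. Whether the rhythm itself differed between WT FA and WT FT was not tested. Leaving out single libraries raised the WT FT count to 1 for each of 4 libraries (Cry1Cry2 double KO FT ZT3, and WT FT ZT4 replicate 2, ZT16 replicate 1 and ZT16 replicate 2) and the mutant count to 1 for 1 library (Bmal1-liverKO FA ZT20).

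**Figure D5:**
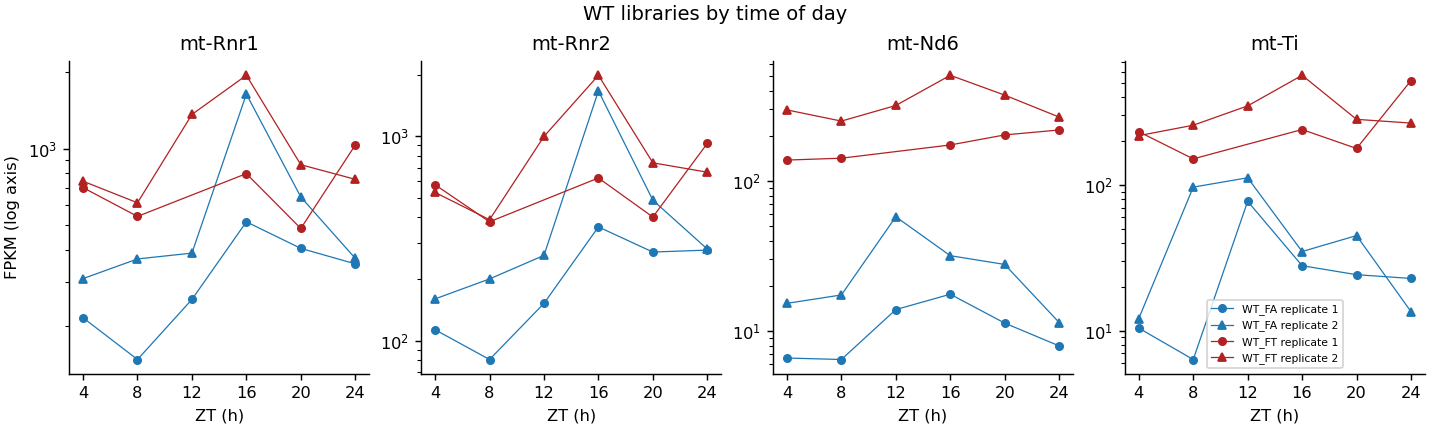
FPKM of mt-Rnr1, mt-Rnr2, mt-Nd6 and mt-Ti (log axis) against ZT in the WT libraries, blue for FA and red for FT, circles for replicate 1 and triangles for replicate 2, with lines joining libraries of one replicate number. In FA both rRNAs are highest at ZT16 in each replicate series, at 359.6 and 1663 FPKM for mt-Rnr2, and FT lies above FA at each time for mt-Nd6 and mt-Ti.

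The nuclear genes that make, process or partner the mitochondrial transcripts did not all move in the direction of the members in WT. Of 39 tested genes of mitochondrial transcription and RNA handling, 15 rose and 10 fell in WT FT, which is 25 called of 39 against 64.0% of all genes (28.6% higher and 35.4% lower). Polrmt, the mitochondrial RNA polymerase, fell by 1.35 ± 0.12 and Fastk by 1.28 ± 0.11, Esrra, a nuclear receptor of mitochondrial gene programmes, fell by 1.98 ± 0.20, and Mtpap, the mitochondrial poly(A) polymerase, rose by 0.54 ± 0.06. Of 72 tested nuclear subunits of the respiratory chain and ATP synthase, 5 rose and 33 fell, against the same shares of all genes, with a median of -0.28 against -0.03 over all genes. Ndufs7, Ndufb7 (both complex I), Atp5d (ATP synthase) and Cox8a (complex IV) fell by 2.73, 2.68, 2.51 and 1.61. Among markers of other cells, 3 of 5 erythroid genes fell in WT FT, with a median of -1.17, and their part in these counts was not tested. The 4 subunit genes have GC contents of 59.6, 53.6, 59.3 and 58.5%, and Polrmt has 60.5%.

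With GC and length corrected, the subunit list still had more genes lower than higher and the handling list no longer had more genes higher than lower. Polrmt then fell by 0.19 (limma adjusted p = 0.0106), Ndufs7 by 1.58, Ndufb7 by 2.29, Atp5d by 1.41 and Cox8a by 0.57. Counts became 5 higher and 8 lower of the 39 handling genes, and 12 higher and 30 lower of 71 subunit genes. Of all genes called under the correction 54.0% were higher, and the share of all genes called there is not given here. In the mutants 0 of the 39 handling genes were called for feeding in any genotype. Of the subunit genes 0 were called in Bmal1-liverKO and 0 in Cry1Cry2 double KO, with and without the correction. Uncorrected, the shares of all genes called were 0.0402% in Bmal1-liverKO, 0.0201% in Cry1Cry2 double KO and 3.33% in Rev-erb liverdKO. In Rev-erb liverdKO 2 of 72 subunit genes fell without the correction, Cox8a by 0.71 and Sdhc by 0.46, against 2.25% of all genes called lower. With it 4 of 71 fell, Cox8a by 0.42, Sdhc by 0.45, Cox5b by 0.55 and Atp5g3 by 0.39. Against WT FA and without the correction, 13 of the 72 subunit genes were lower in Bmal1-liverKO, 64 in Cry1Cry2 double KO and 40 in Rev-erb liverdKO, against 10.1, 30.7 and 23.9% of all genes, and 0, 2 and 2 were higher. In that comparison no plus-strand mitochondrial mRNA was called lower in Cry1Cry2 double KO.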

How the data were processed

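Liver poly(A) RNA was extracted with the RNeasy Mini Kit and made into libraries with the TruSeq Stranded mRNA HT kit, per the labels' protocols. The submitters' processing notes name STAR, featureCounts, DESeq2 and GRCm38. Versions, strand setting and the treatment of reads with several matches are not given in the sources used here. Values were deposited by the authors as FPKM per gene symbol for all 67 libraries. From low FPKM values, 84.3 to 88.1% of which were whole reads within 0.1 read per library, depths of 9.57 M to 35.07 M reads were recovered. These cover counting error only.

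log2(FPKM + 1) was fitted for 9958 genes, those averaging 1 FPKM or more, with limma 3.58.1 (R 4.3.3), with a level, cosine and sine (24 h) for each of the 8 groups, a trended prior and Benjamini-Hochberg adjustment over all genes. A fold on this scale understates the change of low genes. The fit was tested on simulated data, with independent normal noise, a single spread per gene and no rhythms or GC slopes. Of genes raised by 0.5 on the log2 scale, 70% were recovered for feeding in WT, 64% in Rev-erb liverdKO and 52% in Bmal1-liverKO. Such data cannot show the error rate under the GC slopes of the real libraries. All tested members were named, with up to 4 genes of smallest p from each nuclear list. The members and lists were chosen with earlier results of these data known. Same-numbered WT libraries deviated together at 4 times (correlations of 0.40 to 0.63) but not at ZT24 (-0.29), so the numbers were not taken as pairs. Sequences come from GENCODE M21 transcripts, and annotation overlaps were computed there. Alternatives covered scaling, pseudocount 0.1, the filter, weights, prior, time terms, GC and length, voom on recovered reads, the groups fitted, a replicate block, and each library or WT replicate left out. The GC correction of the nuclear lists was added after the data were seen.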

Additional observations from a re-analysis of the deposited data

Results flagged for a closer look

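Among groups of 6 and 8 libraries, 100 gene and group pairs were examined for a library far from the rest, and 7 had one, where chance alone gives about 1 in 20. mt-Rnr1 was 272 FPKM in Rev-erb liverdKO FA at ZT12, against 368 to 461 in the other 7 libraries. mt-Tl1 was 27.1 FPKM in Rev-erb liverdKO FA at ZT24 (others 7.27 to 12.9) and 1.69 FPKM in Rev-erb liverdKO FT at ZT21 (others 5.79 to 12.2). mt-Ti was 307 FPKM in Bmal1-liverKO FT at ZT24, against 111 to 156. mt-Ta was 4.35 FPKM in Cry1Cry2 double KO FT at ZT3 and 0 in the other libraries of that group. mt-Te was 0 in Rev-erb liverdKO FA at ZT6, against 1.44 to 3.72. mt-Tp was 0.590 FPKM in Cry1Cry2 double KO FA at ZT6, against 3.80 to 8.52. The mt-Ta, mt-Te, mt-Tp and mt-Tl1 values rest on few reads.

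The feeding difference varied between genotypes for 15 members (limma F test, adjusted p under 0.05). The F statistics were 171.9 for mt-Nd6, 72.8 for mt-Tp, 39.4 for mt-Te, 28.1 for mt-Tq and 20.1 for mt-Ta on the minus strand. They were 28.2 for mt-Ti, 17.2 for mt-Tm, 6.4 for mt-Tw and 5.1 for mt-Tl1 among plus-strand tRNAs, and 4.7 for mt-Rnr2. Among plus-strand mRNAs they were 7.5 for mt-Nd1, 6.3 for mt-Nd2, 4.4 for mt-Nd4, 4.2 for mt-Co1 and 3.7 for mt-Cytb. The mt-Ta call follows in part from the filter on mean level, which mt-Ta passed only through WT FT. WT FT is the group with the steepest GC slope, and its part in these statistics was not tested beyond the GC and length correction, which left 7 calls.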

How the results depend on the processing

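The number of the 17 members called moved by over 1.5 times as follows. The cause was not tested. The shares of all genes called given above belong to the main fit, and counts under other settings have none beside them. GC and length correction gave 10 for feeding in WT, 9 for Cry1Cry2 double KO minus WT FT and 7 for the difference between genotypes, in a fit of 9581 genes. Library weights gave 1 for feeding in Bmal1-liverKO, 1 in Cry1Cry2 double KO and 12 in Rev-erb liverdKO, 11 for Rev-erb liverdKO minus WT FA and 4 for the mutant rhythm. Fitting only the groups compared gave 9 for feeding in Rev-erb liverdKO and 0 for the WT FA rhythm. Scaling to the same sum, of all or of nuclear genes, gave 11 and 11 for Rev-erb liverdKO minus WT FA. Times as categories gave 8 for the difference between genotypes. The WT FT rhythm went from 0 to 1 with no filter, with GC and length correction and with voom on recovered reads.

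Signs turned under GC and length correction for mt-Nd4 (-0.11) and mt-Cytb (-0.01) in WT feeding, for mt-Nd1 (0.48), mt-Nd2 (0.27), mt-Co1 (0.18), mt-Nd4 (0.36) and mt-Cytb (0.13) in Cry1Cry2 double KO minus WT FT, and for mt-Nd2 (0.48) and mt-Nd4 (0.29) in Rev-erb liverdKO minus WT FT. With a replicate block for WT, 15 members were called for Cry1Cry2 double KO minus WT FA, 11 for Rev-erb liverdKO minus WT FA, 7 for the WT FA rhythm and 1 for the WT FT rhythm, and mt-Nd2 turned to 0.33 in Bmal1-liverKO minus WT FA. The block sets the WT level in the comparisons with mutants to that of replicate 1. The labels do not say whether WT libraries of the same number belong together, so these are values only.

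Leaving out WT replicate 1, WT replicate 2 or single libraries gave 12 to 17 for feeding in WT, 3 to 4 in Rev-erb liverdKO and 0 to 0 in the other mutants. Under FA the ranges were 4 to 8 for Bmal1-liverKO, 6 to 11 for Cry1Cry2 double KO and 6 to 11 for Rev-erb liverdKO minus WT. Under FT they were 4 to 14, 7 to 16 and 7 to 16, and mt-Nd5 in Bmal1-liverKO ran from -1.17 to 0.01. The difference between genotypes gave 13 to 16, the WT FA rhythm 1 to 7, the WT FT rhythm 0 to 1 and the mutant rhythm 0 to 1. The 7 came without WT FA ZT20 replicate 1.

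Scaling to the same sum moved the share of higher calls among all genes from 59.4 to 93.7% for Bmal1-liverKO minus WT FA, from 44.6 to 68.1% for Cry1Cry2 double KO, from 46.5 to 85.3% for Rev-erb liverdKO, from 71.0 to 84.1% and 53.9 to 66.6% for Bmal1-liverKO and Rev-erb liverdKO minus WT FT, and from 32.5 to 4.9% for feeding in Rev-erb liverdKO. Scaling to the sum of nuclear genes moved it from 44.7 to 55.3% for feeding in WT, and median-of-ratios scaling moved it to 46.5% for feeding in Rev-erb liverdKO and 53.9% for Bmal1-liverKO minus WT FT. Rhythm had no value with times as categories or without time terms. Depth limits the tRNAs of either strand with few reads, since 3 reads on 67 bases amount to 1.28 to 4.68 FPKM.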

Other observations

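A set of 3 tRNA genes too low to test is named here after their values were seen, with recovered reads summed over the libraries of each group, FA before FT. mt-Tc, the tRNA for cysteine on the minus strand, had 2 reads in 12 WT FA libraries and 26 in 11 WT FT libraries, the latter from 8 libraries with at most 8 reads in one. It had 4 and 3 reads in Bmal1-liverKO (6 libraries each), 4 and 2 in Cry1Cry2 dKO (8 each) and 5 and 0 in Rev-erb liverdKO (8 each). mt-Tn, the minus-strand tRNA for asparagine, had 0 and 8 reads in WT, 1 and 0 in Rev-erb liverdKO, and 0 in the groups of the other genotypes. mt-Tt, the plus-strand tRNA for threonine, had 2 and 12 reads in WT, 1 and 5 in Bmal1-liverKO, 5 and 7 in Cry1Cry2 dKO, and 1 and 6 in Rev-erb liverdKO. These sums are not scaled to depth and were not tested.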
